A study of Homo sapiens with 60 samples.

Results

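The root of Aucklandia (Aucklandiae Radix, here aucklandia), extracted in 70% ethanol, was given to HepG2 cells at 280, 56 and 11.2 µg/mL for 24 h, and gene expression was read by RNA sequencing. HepG2 is an established line from a human liver carcinoma that still makes many plasma proteins of hepatocytes. The 3 aucklandia libraries, 1 per dose, were picked by their sample labels from a series of 60 libraries and set against the 3 vehicle libraries, which per their sample labels received 0.1% dimethyl sulfoxide (DMSO) for 24 h. The series text gives 2% DMSO, and the values do not settle which is right. By the rule in the series text, a top dose under 500 µg/mL is the concentration that cut viability by 20%, and lower doses are 5-fold and 25-fold dilutions of it. The remaining 54 libraries hold 7 other herbal extracts at 3 doses each. The labels do not say whether the vehicle libraries came from separate cultures, so their spread may be technical. In the sample names the vehicle libraries carry a code of their own, while the 3 doses share a leading code with the polygala libraries. The counts of high over low are therefore given beside those over vehicle. Per the series text, samples with little RNA were left out.

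Aucklandia root is known for the sesquiterpene lactones costunolide and dehydrocostus lactone. These molecules carry a reactive methylene group that bonds to cysteine thiols of glutathione and of proteins. Cells answer such electrophiles through KEAP1, a cysteine-rich protein whose modification frees the transcription factor NRF2 to raise reductases, glutathione synthesis and thiol repair. Damage to protein folding is answered by HSF1, which raises chaperones, and by transcription factor ATF4, which raises amino acid import and synthesis. The composition of this extract was not analysed here.

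With 1 library per dose there is no test, and no p-value is given. Levels are in CPM, the share of a library's counts that fall on a gene, on scaled library sizes. Changes are log2 ratios after adding 1 CPM, which understates the change of low genes. A gene was measured when it reached 10 CPM at the dose or in the vehicle mean, and it was called higher or lower when it was at least 2-fold off the vehicle mean and outside the range of the 3 vehicle libraries. As a measure of error, the SD between replicate libraries was pooled per gene over the 19 replicated groups of the series. Its median was 0.079 log2 units and its 95th percentile 0.14, on the assumption that the single libraries vary like those. Levels are shares of a library, so fewer cells of a kind and less RNA per cell cannot be told apart.

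Depth was 20.7, 23.6 and 27.2 M expected counts at the high, medium and low dose and 30.2, 25.9 and 23.5 M in vehicle. The summed level of 6 hepatocyte markers (ALB, TTR, APOA1, SERPINA1, HNF4A, FGB) was 10389, 13901 and 14321 CPM at the high, medium and low dose and 15220 to 16208 CPM in vehicle, and all 6 were measured. Fibroblast, endothelial and erythroid marker sums were at most 1.40, 6.57 and 1.44 CPM in any of these 6 libraries. The leukocyte list summed to 499 CPM at the high dose and 1016 to 1079 CPM in vehicle, nearly all of it LYZ and CD68, with PTPRC and CD3E at or near 0. The part of these shifts in the results was not tested. The 13 protein genes of the mitochondrial genome took 7.20, 7.98 and 8.31% of counts at the high, medium and low dose, against 11.9 to 14.8% in vehicle and 6.98 to 12.5% in the other 54 treated libraries.

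At 280 µg/mL, 906 of 9867 measured genes were called higher than in vehicle (9.18%) and 1091 lower (11.1%). At 56 µg/mL, 35 of 9569 were called higher (0.366%) and 26 lower (0.272%), and at 11.2 µg/mL 11 of 9499 were higher (0.116%) and 15 lower (0.158%). Against the low dose, which carries the same leading code, 903 of 9879 genes were at least 2-fold higher at the high dose (9.14%) and 1083 lower (11.0%). A gene that is measured through the high dose alone had to differ, so counts are also given over the 9335 genes of at least 10 CPM in vehicle, of which 618 were called higher (6.62%) and 1091 lower (11.7%). Scaling changes this balance. With library size alone 1377 genes were higher and 749 lower than vehicle, since the median over all genes moved to 0.11 log2 units, against -0.10 as reported. By the same count the 17 high-dose libraries of the 6 replicated extracts had 15 to 46 genes past 2-fold each, and the single polygala library at 250 µg/mL had 1583. Aucklandia had 26 such genes at the low and 61 at the medium dose. The other low-dose libraries had 12 to 58 and the other medium-dose libraries 11 to 33.

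**Figure D1:**
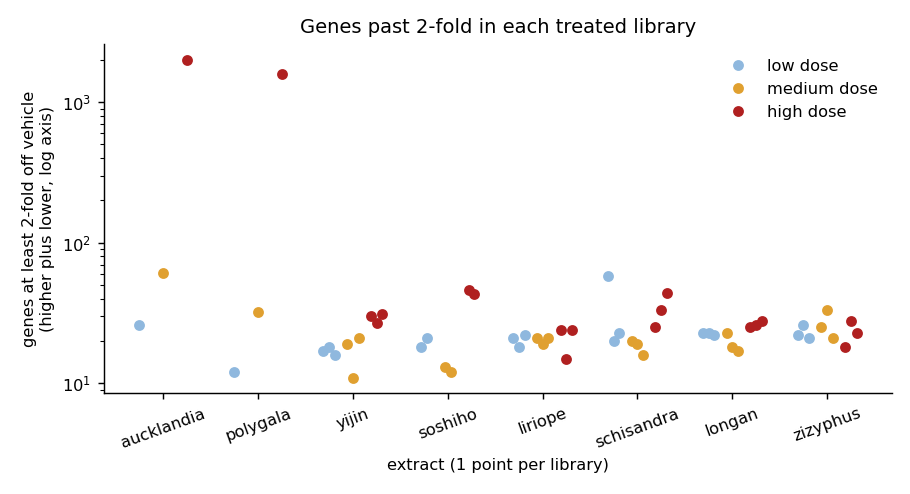
Number of genes called against vehicle (higher plus lower, log axis) in each of the 57 treated libraries, by extract and dose, 1 point per library. Aucklandia at the high dose has 1997 and polygala 1583, while the 17 other high-dose libraries have 15 to 46.

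Among the 906 genes called higher, 174 were at least 4-fold and 52 at least 8-fold up, and 770 were also called against the low dose. Among the 1091 called lower, 177 were at least 4-fold and 21 at least 8-fold down, and 933 were also called against the low dose. The high-dose library lay above all 57 other libraries for 842 of the 906 genes and below all of them for 922 of the 1091. The medium dose showed little of these changes. The median of the 906 was 1.38 log2 units at the high, 0.12 at the medium and 0.04 at the low dose, and that of the 1091 was -1.40, -0.11 and -0.05. A comparison that shares no library with high over vehicle is medium over low. There, 62.1% of the 906 genes were higher at medium than at low and 63.2% of the 1091 were lower, beside 50.2% higher among all measured genes.

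**Figure D2:**
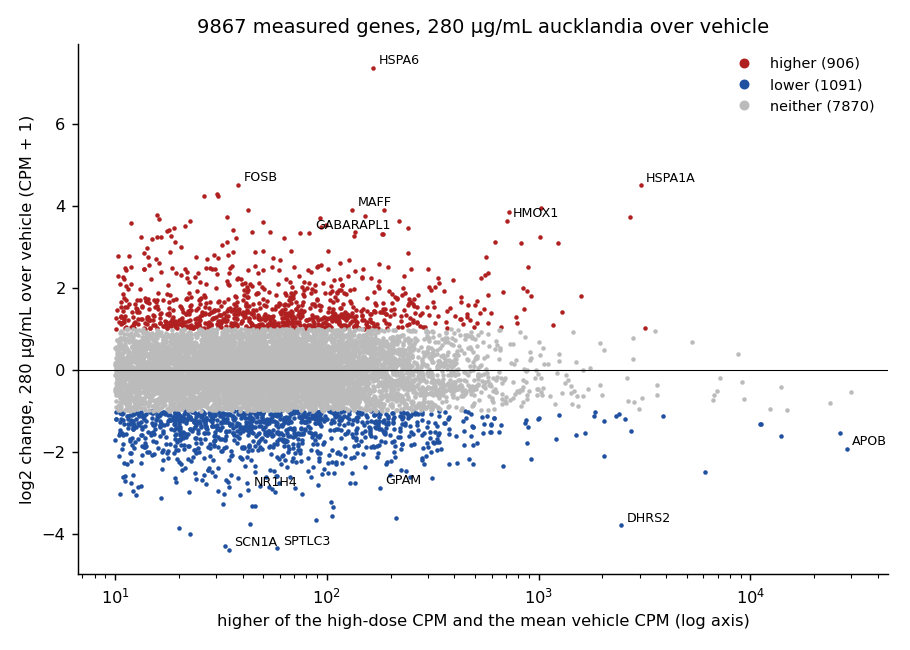
Log2 change of 280 µg/mL aucklandia over vehicle (vertical) against the higher of the 2 levels (horizontal, log axis), 1 point per measured gene, with the 906 genes called higher in red and the 1091 called lower in blue. HSPA6 stands above all other genes at 7.36, and SCN1A and SPTLC3 lie lowest at -4.40 and -4.36.

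Heat shock genes held the largest increase and were called at the high dose alone. HSPA6, the strictly inducible HSP70, had 3679 counts (165 CPM) at 280 µg/mL and 0, 1 and 0 counts in vehicle. Its log2 change of 7.36 depends on the 1 CPM added and is no measured ratio. HSPA1A, an inducible HSP70, had 127, 133 and 140 CPM in vehicle, 95.6 CPM at the low, 81.4 CPM at the medium and 3032 CPM at the high dose. The near-identical copy HSPA1B had 2695 CPM at the high dose, against 183, 217 and 209 CPM in vehicle. Both lay below the vehicle range at the 2 lower doses and far above it at the top dose. At the 2 lower doses they were within the range of the replicated libraries of the series, 67.7 to 140 CPM of HSPA1A and 104 to 217 CPM of HSPA1B. The top of both ranges was a vehicle library. Reads of these 2 copies may have been split between them by the counting.

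The promoters of 3 heat shock genes called higher are shown because they differ in how many copies of the HSF1 motif they hold. They run 250 bases up to the start of each gene, 5′ to 3′, from RefSeq on GRCh38.p14, with matches to GAANNTTC or TTCNNGAA in capitals (both strands, overlapping matches merged). HSPA6 lies at chr1:161524290-161524539 (plus strand), HSPA1A at chr6:31815293-31815542 (plus strand) and CHORDC1 at chr11:90223050-90223299 (minus strand).
HSPA6: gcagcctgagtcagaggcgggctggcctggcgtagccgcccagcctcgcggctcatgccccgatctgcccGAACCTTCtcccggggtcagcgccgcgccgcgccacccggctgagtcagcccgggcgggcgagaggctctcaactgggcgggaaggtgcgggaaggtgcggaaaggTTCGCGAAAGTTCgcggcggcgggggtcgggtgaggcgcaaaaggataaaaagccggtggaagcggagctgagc
HSPA1A: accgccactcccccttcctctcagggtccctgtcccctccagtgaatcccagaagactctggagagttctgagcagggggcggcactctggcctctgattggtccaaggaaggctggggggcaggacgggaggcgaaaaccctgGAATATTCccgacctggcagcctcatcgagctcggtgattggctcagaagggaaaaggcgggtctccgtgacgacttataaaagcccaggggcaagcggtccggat
CHORDC1: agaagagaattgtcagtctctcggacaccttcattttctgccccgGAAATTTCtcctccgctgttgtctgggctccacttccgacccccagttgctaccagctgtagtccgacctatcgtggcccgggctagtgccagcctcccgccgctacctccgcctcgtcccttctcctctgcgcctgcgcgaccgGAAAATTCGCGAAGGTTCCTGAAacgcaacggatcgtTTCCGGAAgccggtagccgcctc
They hold 3, 1 and 6 matches, and the changes at the high dose were 7.36, 4.50 and 1.34 log2 units. Of all 35116 RefSeq promoters 11.6% hold a match, as do 5 of the 9 list genes called higher that have a promoter entry and 3 of the 11 others. A match is a description of the letters and not a measured binding site.

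In the whole heat shock list 11 of 22 measured genes were called higher at the high dose and 0 lower, beside 9.18% of all genes higher. Of these 11, HSPA6 and DNAJB4 were measured through the high dose alone, and 9 of the 20 members of at least 10 CPM in vehicle were called higher, beside 6.62% of such genes. Over the low dose 11 were higher and 0 lower. At the medium and low doses 0 members were called in either direction. HSPH1, a nucleotide exchange factor for HSP70, had 152, 143 and 139 CPM in vehicle, 136 and 132 CPM at the low and medium doses and 1230 CPM at the high dose (log2 3.08 over vehicle, replicate SD 0.056). DNAJB1, the HSP40 partner of HSP70, had 501 CPM at the high dose, against 162, 177 and 165 CPM in vehicle. BAG3, a co-chaperone that passes clients to autophagy, had 302 CPM, against 49.5, 55.1 and 57.7 CPM in vehicle. The small heat shock protein HSPB1 was higher too (333 CPM, against 66.4 to 72.2 CPM in vehicle). HSPB8, a small heat shock protein outside this list, had 22.6 CPM, against 0.741 to 1.03 CPM in vehicle. It was measured through the high dose alone. Not all list members passed 2-fold. HSP90AA1 had 3564 CPM, against 1725 to 1973 CPM in vehicle (log2 0.94), HSPA8 had 2041 CPM, against 1396 to 1537 CPM (log2 0.49), and the mitochondrial HSPE1 had 228 CPM, against 210 to 222 CPM (log2 0.08). The list's median over the 20 members of at least 10 CPM in vehicle was 0.86 at the high, -0.11 at the medium and -0.07 at the low dose, beside -0.10, 0.00 and -0.00 for all genes. In the high-dose polygala library, with its 1583 genes past 2-fold, HSPA6 was at 0 counts and HSPA1A at 33.9 CPM.

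**Figure D3:**
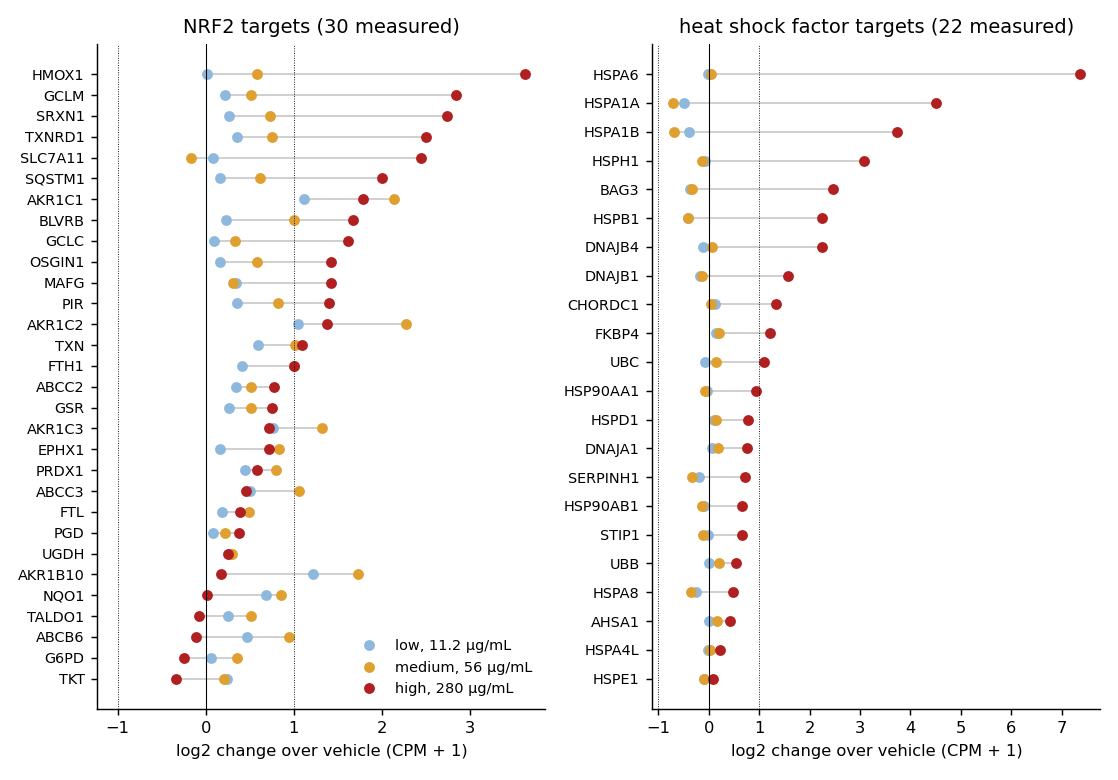
Log2 change over vehicle of each measured member of the NRF2 list (left) and the heat shock list (right) at 11.2, 56 and 280 µg/mL, 1 point per dose, with dotted lines at 2-fold. No heat shock member passes 2-fold at the 2 lower doses, where HSPA1A lies lowest at -0.48 and -0.71, while 26 of 29 NRF2 members with at least 10 CPM in vehicle are higher at medium than at low, and the bottom members of the left panel are highest at medium.

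NRF2 target genes were called at all 3 doses, in 2 patterns. At the high dose 15 of 30 measured members were called higher and 0 lower, beside 9.18% of all genes higher, and 14 of the 29 members of at least 10 CPM in vehicle, beside 6.62%. Over the low dose 11 were higher, beside 9.14%, and AKR1B10 was lower. At the medium dose 8 members were called higher, beside 0.366% of all genes, and at the low dose 3, beside 0.116%. The medians were 0.28, 0.62 and 0.78 log2 units from low to high dose. In medium over low, which uses no vehicle library, the median was 0.40 and 26 of 29 members were higher at medium.

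The first pattern was a steep step at the high dose, in genes of thiol and haem metabolism. HMOX1, the haem-degrading oxygenase, had 52.0, 58.7 and 57.9 CPM in vehicle, 57.0 CPM at the low, 84.4 CPM at the medium and 708 CPM at the high dose (log2 3.63 over vehicle, replicate SD 0.068). Only the medium and high doses stood above the vehicle range. GCLM, the modifier subunit of the enzyme that starts glutathione synthesis, had 242 CPM at the high dose, against 37.5, 30.9 and 29.6 CPM in vehicle, and the catalytic subunit GCLC 244 CPM, against 74.7 to 83.7 CPM. SRXN1, which repairs over-oxidised peroxiredoxins, had 566 CPM, against 80.7 to 86.1 CPM in vehicle. TXNRD1, thioredoxin reductase, had 153, 160 and 154 CPM in vehicle, 200 CPM at the low, 263 CPM at the medium and 893 CPM at the high dose, a step up at each dose. Its low and medium levels lay within the range of the replicated libraries of the series, 153 to 296 CPM. The medium levels of HMOX1 (range 52.0 to 94.1 CPM), SRXN1 (139 CPM, range 80.7 to 165 CPM) and GCLM (47.2 CPM, range 29.6 to 71.5 CPM) did too. The lowest level of each of these ranges was of a vehicle library. SLC7A11, the cystine importer that is also an ATF4 target, had 251 CPM at the high dose, against 43.9 to 47.4 CPM in vehicle, and was not above vehicle at the medium dose (39.9 CPM).

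The promoters of TXNRD1 and GCLM are shown because each holds 1 match to the NRF2 element, TGACNNNGC, in capitals (250 bases up to the start, 5′ to 3′, both strands searched). TXNRD1 lies at chr12:104215529-104215778 (plus strand) and GCLM at chr1:93909431-93909680 (minus strand), on GRCh38.p14 from RefSeq.
TXNRD1: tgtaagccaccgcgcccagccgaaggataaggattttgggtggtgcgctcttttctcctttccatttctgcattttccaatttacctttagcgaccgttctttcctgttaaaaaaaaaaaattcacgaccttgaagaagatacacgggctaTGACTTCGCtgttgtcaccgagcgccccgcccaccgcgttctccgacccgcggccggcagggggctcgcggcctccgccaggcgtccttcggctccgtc
GCLM: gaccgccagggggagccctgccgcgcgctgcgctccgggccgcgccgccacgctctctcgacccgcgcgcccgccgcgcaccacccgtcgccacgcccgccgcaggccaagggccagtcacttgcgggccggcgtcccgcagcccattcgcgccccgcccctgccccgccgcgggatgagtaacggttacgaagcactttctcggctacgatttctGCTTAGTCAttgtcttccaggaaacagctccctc
Of all RefSeq promoters 10.9% hold this motif. In the NRF2 list it stands in 2 of 12 promoters of genes called higher and in 2 of 10 others, and enhancers farther off were not searched.

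The second pattern, in the reductase genes named next, was a level at the medium dose above that at the high dose. PTGR1, a reductase described further below, went the other way, with 78.1 CPM at the medium and 136 CPM at the high dose. AKR1C1, an aldo-keto reductase, had 461, 445 and 473 CPM in vehicle, 997 CPM at the low, 2024 CPM at the medium and 1592 CPM at the high dose. AKR1C2 had 204, 204 and 199 CPM in vehicle and 419, 986 and 527 CPM from low to high. AKR1B10, a retinal and aldehyde reductase, had 39.0, 43.0 and 41.9 CPM in vehicle, 97.4 and 140 CPM at the low and medium doses and 46.7 CPM at the high dose. NQO1, a quinone reductase and standard NRF2 target, had 594 and 669 CPM at the low and medium doses, while 369 CPM at the high dose fell within the vehicle range of 358 to 375 CPM. These are the only 3 NRF2 members called at the low dose: AKR1C1, AKR1C2 and AKR1B10. In the 57 libraries outside the dose series, AKR1C1 reached 897, AKR1C2 440, AKR1B10 142 and NQO1 938 CPM. AKR1C1 at every dose and AKR1C2 at the medium and high doses were above these levels, while AKR1B10 and NQO1 were below them at every dose. Among the replicated libraries, the lowest AKR1B10 and NQO1 levels (39.0 and 358 CPM) were of vehicle. The AKR1C genes are close copies, so reads may have been shared out among them.

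**Figure D4:**
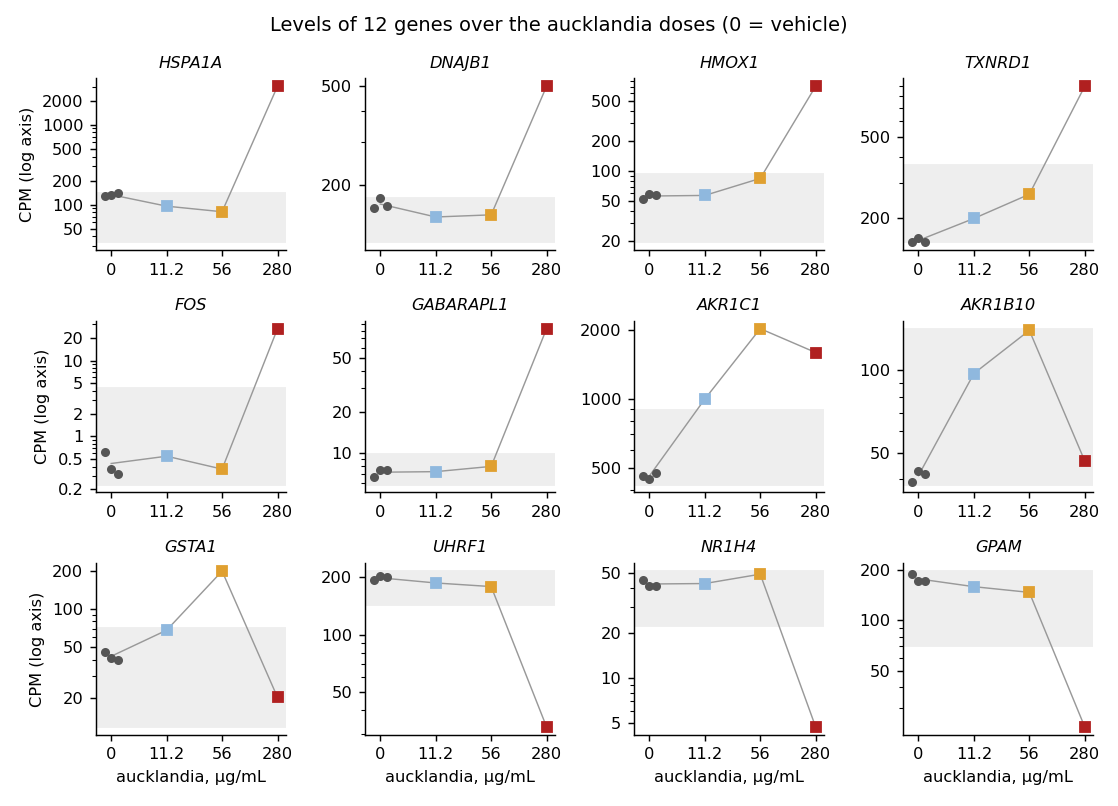
CPM (log axis) of 12 genes at 0 (the 3 vehicle libraries, grey points), 11.2, 56 and 280 µg/mL aucklandia (1 library each, squares), with the line through the vehicle mean and a grey band for the range of the 57 other libraries of the series. HSPA1A, DNAJB1, HMOX1, TXNRD1, FOS and GABARAPL1 are highest at 280 µg/mL, AKR1C1, AKR1B10 and GSTA1 at 56 µg/mL, and UHRF1, NR1H4 and GPAM are lowest at 280 µg/mL.

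The 35 genes called higher at the medium dose were of several shapes, and those named here beyond the gene lists were chosen after their values were seen. Of the 35, 14 were called higher at the high dose too and 2 were called lower there. Since they were chosen by their level in the single medium library, the 26 that were higher at medium than at high describe the choice in part. GSTA1, a glutathione transferase, had 46.3, 41.5 and 40.0 CPM in vehicle, 68.2 CPM at the low, 198 CPM at the medium and 20.3 CPM at the high dose. Its close copy GSTA2 had 6.09 to 6.32 CPM in vehicle, 11.7 and 48.4 CPM at the low and medium doses and 5.89 CPM at the high dose. ALDH1L1, a folate enzyme, had 30.8 to 34.4 CPM in vehicle, 52.5 and 78.5 CPM at the low and medium doses and 9.35 CPM at the high dose. These 3 genes peaked at the medium dose. At the high dose GSTA1 and ALDH1L1 lay below the vehicle range (log2 -1.03 and -1.72). GSTA2 was near vehicle there (log2 -0.07, replicate SD 0.14), with under 10 CPM in both. The export pump ABCC3 (125 CPM at the medium dose, against 58.3 to 60.7 CPM in vehicle) and complement protease C1S (35.8 CPM, against 15.9 to 16.6 CPM) peaked there as well. PTGR1, a reductase of unsaturated carbonyls, was higher at each further dose, with 13.2, 12.1 and 11.8 CPM in vehicle and 25.6, 78.1 and 136 CPM from low to high. At the medium dose 29 of the 35 genes were above all 57 libraries outside the dose series.

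Of 31 proteasome subunits 3 were called higher (PSMC4, PSMD14 and PSMD12) and 0 lower, a share near the 9.18% of all genes, and over the low dose PSMC4 alone was called. The list's median was 0.48 at the high, 0.31 at the medium and 0.14 at the low dose, beside -0.10, 0.00 and -0.00 for all genes, and 0.28 for high over low. In medium over low 29 of 31 subunits were higher at medium. PSMC4, an ATPase subunit, had 112, 117 and 109 CPM in vehicle, 114 CPM at the low, 145 CPM at the medium and 244 CPM at the high dose. Of 19 lysosome and autophagy genes 7 were called higher and 0 lower, beside 9.18% of all genes higher. Among the 18 of at least 10 CPM in vehicle 6 were higher, and over the low dose 8 of 19. GABARAPL1, a protein that coats forming autophagosomes, had 82.7 CPM at the high dose, against 6.74, 7.52 and 7.50 CPM in vehicle. MAP1LC3B of the same family had 623 CPM, against 74.0, 68.2 and 70.4 CPM, and the autophagy receptor SQSTM1 844 CPM, against 196 to 220 CPM. MCOLN1, a lysosomal calcium channel, and the proteases CTSL and CTSB changed by 1.88, 1.64 and 1.29 log2 units. TFEB, a regulator of lysosomal genes, had 12.1 CPM at the high dose, against 18.9 to 20.1 CPM in vehicle (log2 -0.65).

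Early response genes, usually transient after a stimulus, were high after 24 h at the top dose. Of 22 measured members 15 were called higher and 1 lower (ETV4), beside 9.18% of all genes higher and 11.1% lower. Of the 15, 8 were measured through the high dose alone, and 7 of the 14 members of at least 10 CPM in vehicle were called higher, beside 6.62% of such genes. Over the low dose 15 were higher and 0 lower. FOS and FOSB, subunits of the AP-1 factor, had 26.4 and 38.0 CPM at the high dose, against 0.318 to 0.630 CPM and 0.593 to 0.908 CPM in vehicle. EGR1 had 151 CPM, against 10.3, 10.6 and 9.64 CPM, and IER3, an apoptosis modulator, 726 CPM, against 47.1, 48.2 and 53.8 CPM. IER3 also stood above the vehicle range at the low and medium doses, with 74.9 and 94.8 CPM. DUSP1 and DUSP5, phosphatases that switch off MAP kinases, changed by 3.48 and 3.41 log2 units. MYC had 227 CPM at the high dose, against 209 to 216 CPM in vehicle, and DUSP6, an ERK phosphatase, 65.7 CPM, against 35.5 to 38.9 CPM (log2 0.79). Polygala at its high dose also had EGR1 at 161 CPM and JUN at 139 CPM, against 136 CPM of JUN at high aucklandia, with FOS at 4.40 CPM.

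Genes of several kinds made up the rest of the largest increases. CCN1, a matrix protein and YAP target, had 186 CPM at the high dose, against 11.4 to 11.6 CPM in vehicle, while CCN2 of the same family had 148 CPM, against 161 to 166 CPM. HBEGF, a ligand of the EGF receptor, had 42.5 CPM, against 1.64 to 2.11 CPM in vehicle. The TNF family ligand TNFSF9 had 30.3 CPM, against 0.546 to 0.743 CPM, and the vasodilator peptide ADM 92.4 CPM, against 4.85 to 7.60 CPM. MAFF, a small partner of NRF2 and related factors, had 131 CPM, against 6.92 to 8.46 CPM. PHLDA2, EID3, KLF4 and the cell cycle inhibitor SFN were also among the 14 largest increases that moved 1 way over the doses, at 3.73, 3.78, 3.67 and 3.63 log2 units. In the YAP and TGF-beta list 4 of 11 members were called higher and 2 lower (the matrix genes THBS1 and LOX), beside 9.18% and 11.1% of all genes. Among the 10 of at least 10 CPM in vehicle 3 were higher, and over the low dose 4 were higher and 2 lower.

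Of 28 ATF4 and integrated stress response genes 12 were called higher at the high dose, beside 9.18% of all genes, and 3 lower, a share near the 11.1% of all genes. Among the 24 of at least 10 CPM in vehicle 9 were higher, beside 6.62% of such genes, and over the low dose 12 were higher and 3 lower. The eIF2 phosphatase subunit PPP1R15A had 242 CPM, against 21.1, 21.4 and 21.4 CPM in vehicle. The stress cytokine GDF15 had 829 CPM, against 86.8, 104 and 97.0 CPM, asparagine synthetase ASNS 162 CPM, against 33.5 to 34.1 CPM, and ATF3 29.3 CPM, against 2.74 to 4.01 CPM. DDIT3, the CHOP factor, had 18.7 CPM, against 6.00 to 6.27 CPM. Other members were not called higher. TRIB3 had 262 CPM, against 145 to 176 CPM (log2 0.67), and CHAC1 was below 0.1 CPM at the high dose. The serine and mitochondrial enzymes PHGDH, SHMT2 and PCK2 were called lower, at -1.08, -1.50 and -1.52 log2 units. Of 18 endoplasmic reticulum chaperones and related genes 3 were called higher (DNAJB9, EDEM1, DNAJC3) and 2 lower (PDIA4 and the factor XBP1), beside 9.18% and 11.1% of all genes, and over the low dose 1 was higher (DNAJB9) and 2 lower, with HSPA5 at 1944 CPM, against 1187 to 1286 CPM in vehicle (log2 0.66).

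In the p53 list 7 of 25 members were called higher and 1 lower, beside 9.18% and 11.1% of all genes. Among the 23 of at least 10 CPM in vehicle 5 were higher, beside 6.62% of such genes, and over the low dose 7 were higher and 2 lower. CDKN1A, the p21 inhibitor of cyclin-dependent kinases, had 91.7, 98.6 and 92.6 CPM in vehicle, 90.7 CPM at the low, 129 CPM at the medium and 359 CPM at the high dose. The stress kinases PLK3 and PLK2 changed by 2.44 and 2.04 log2 units. MDM2, the ligase that p53 induces, had 333 CPM at the high dose, against 228 to 247 CPM in vehicle (log2 0.49), and the effector BAX 75.1 CPM, against 94.8 to 105 CPM (log2 -0.39). The list's median was 0.10.

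**Figure D5:**
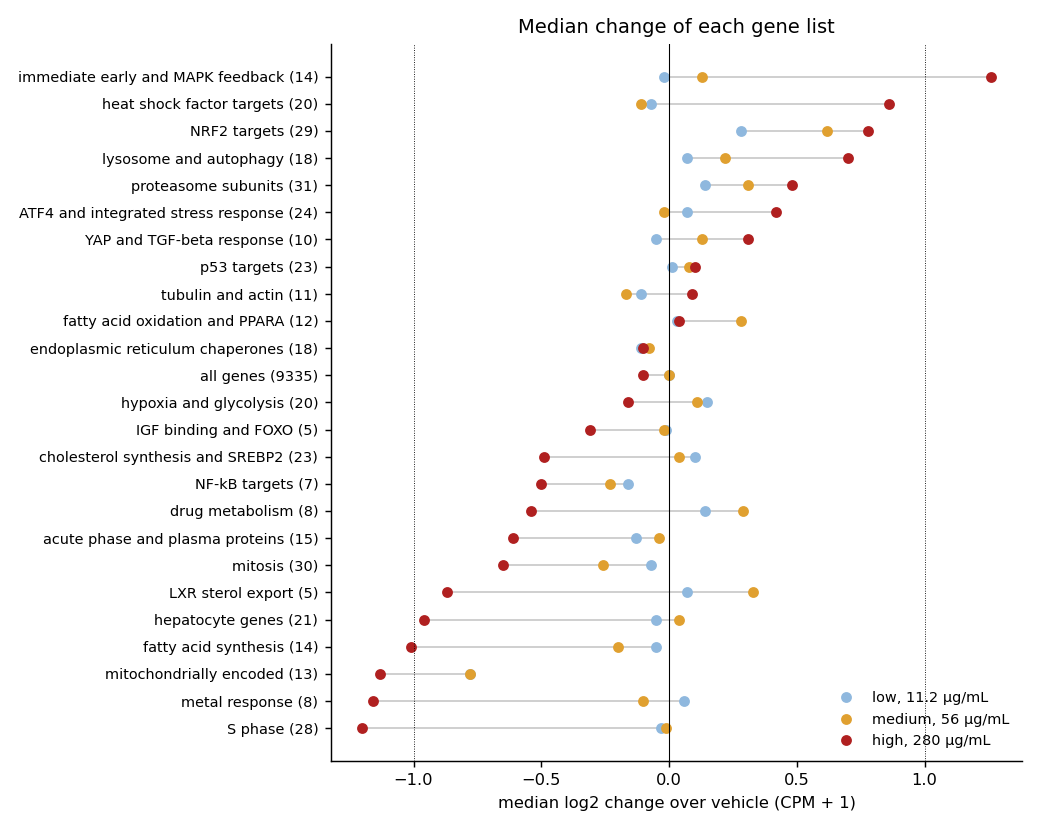
Median log2 change over vehicle of each gene list at 11.2, 56 and 280 µg/mL (number of members of at least 10 CPM in vehicle in brackets; lists with under 5 left out), with dotted lines at 2-fold. At the high dose the early response, heat shock and NRF2 lists lie highest (1.26, 0.86 and 0.78) and the S phase, metal response and mitochondrial lists lowest (-1.20, -1.16 and -1.13). The low and medium points of the mitochondrial list coincide at -0.78.

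Genes of DNA replication were called lower at the high dose alone. Of 28 S phase genes 18 were called lower and 0 higher, beside 11.1% of all genes lower, and over the low dose 19 were lower. The median was -1.20 at the high, -0.01 at the medium and -0.03 at the low dose. UHRF1, which couples replication to DNA methylation, had 32.6 CPM at the high dose, against 194, 204 and 200 CPM in vehicle, with 187 and 179 CPM at the low and medium doses. MCM2 of the replicative helicase had 58.3 CPM, against 211, 236 and 228 CPM. CCNE1, the cyclin of S phase entry, had 59.5 CPM, against 33.0 to 39.3 CPM (log2 0.72). Mitosis genes stepped down from dose to dose. Of 30, 7 were called lower, beside 11.1% of all genes, and 6 over the low dose. The median was -0.65 at the high, -0.26 at the medium and -0.07 at the low dose, and 0 of 30 were higher at medium than at low. MKI67, the proliferation marker, had 644, 598 and 609 CPM in vehicle, 478 CPM at the low, 333 CPM at the medium and 271 CPM at the high dose. The replicated libraries of the series had 374 to 644 CPM of MKI67, and the highest was a vehicle library. The low dose lay within this range and the medium and high doses below it. TOP2A, the DNA topoisomerase, had 571, 439 and 205 CPM from low to high, with 573 to 626 CPM in vehicle.

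Hepatocyte identity genes were lower at the high dose. Of 21 members 10 were called lower and 0 higher, beside 11.1% of all genes lower, and 9 were lower over the low dose. The median was -0.96. The nuclear receptors NR1H4, which senses bile acids, and NR0B2, its target, had 4.72 and 9.89 CPM at the high dose, against 40.9 to 45.4 CPM and 39.4 to 40.7 CPM in vehicle. HNF4A, a master regulator of liver genes, had 157 CPM, against 425, 442 and 463 CPM, and FOXA1 42.8 CPM, against 143 to 148 CPM. Secreted products differed among themselves. ALB had 4826 CPM, against 7345, 6739 and 6810 CPM in vehicle (log2 -0.53), while APOB, the protein of very low density lipoprotein, had 24672, 18432 and 7457 CPM from low to high, with 27177 to 30603 CPM in vehicle. Of 15 acute phase and plasma proteins 2 were called lower over vehicle and over the low dose, haptoglobin HP and hepcidin HAMP, a share near the 11.1% of all genes. HAMP had 3.15 CPM at the high dose, against 24.4 to 27.4 CPM in vehicle, and 35.5 CPM at the medium dose. Of 8 measured drug metabolism genes 4 were called lower, beside 11.1% of all genes, among them the sulfotransferase SULT2A1 (17.4 CPM, against 94.3 to 101 CPM) and the xenobiotic receptor NR1I2 (3.87 CPM, against 14.8 to 16.5 CPM).

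Lipid genes moved in both directions. Of 14 fatty acid synthesis genes 7 were called lower and 0 higher, beside 11.1% of all genes lower, and 6 were lower over the low dose. In medium over low 1 of 14 was higher at medium than at low. GPAM, which starts glycerolipid synthesis, had 23.1 CPM at the high dose, against 190, 171 and 172 CPM in vehicle. The regulators MLXIPL and SREBF1 had 47.1 and 52.4 CPM, against 199 to 219 CPM and 146 to 157 CPM. Of 23 cholesterol synthesis and SREBP2 target genes 6 were called lower and 1 higher, beside 11.1% and 9.18% of all genes, and over the low dose 8 of 24 were lower and 1 higher. LSS, which closes the sterol rings, had 309, 346 and 346 CPM in vehicle, 366 CPM at the low, 347 CPM at the medium and 109 CPM at the high dose. ACAT2, which makes acetoacetyl-CoA, had 65.3 CPM at the high dose, against 199 to 201 CPM in vehicle. HMGCS1, which makes HMG-CoA, had 381 CPM, within the vehicle range of 368 to 434 CPM. Of 13 measured fatty acid oxidation and PPARA genes 2 were called higher and 2 lower over vehicle and over the low dose, beside 9.18% and 11.1% of all genes. PLIN2, a lipid droplet coat, had 557 CPM, against 110 to 115 CPM, and FABP1, the liver fatty acid carrier, 6.03 CPM, against 79.7 to 93.9 CPM. Of 6 measured genes in the list of LXR targets and sterol export, 2 were called higher (MYLIP, SMPDL3A) and 2 lower (ABCA1, ABCG8). The shares of all genes were 9.18% and 11.1%. MYLIP was measured through the high dose alone, and 1 of the 5 members of at least 10 CPM in vehicle was called higher. Over the low dose 2 members were higher and 3 lower.

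The largest decreases that moved 1 way over the doses were of mixed function. SCN1A, a sodium channel subunit, had 37.0, 32.3 and 33.8 CPM in vehicle, 30.3 CPM at the low, 15.3 CPM at the medium and 0.675 CPM at the high dose. SPTLC3, a subunit of the enzyme that starts sphingolipid synthesis, had 1.89 CPM at the high dose, against 55.0 to 60.4 CPM in vehicle. DHRS2, a short-chain dehydrogenase, had 175 CPM, against 2383, 2502 and 2473 CPM. The amino acid transporter SLC6A14, the ubiquitin-like UBD, SORBS2 and the metal transporter SLC30A10 were below 3 CPM at the high dose, against 15.5 to 45.5 CPM in vehicle. GYG2, DGKK and FABP1 belong to the same 14. The overlapping pair HEPACAM and HEPN1, on opposite strands of chromosome 11, fell together, and their reads may not have been kept apart. SLX1B, also among them, is a near-identical copy of SLX1A with a replicate SD of 0.61, so its change of -3.33 is uncertain.

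The metallothioneins MT1G, MT1F, MT1X and MT1E, small zinc-binding proteins, were called lower at the high dose, while MT2A was not. Of 8 measured metal response genes 4 were called lower, beside 11.1% of all genes, and also over the low dose. The importer SLC39A10 and the regulator MTF1 were called higher over vehicle (log2 1.13 and 1.10) but not over the low dose (log2 0.93 and 0.92). MT1G had 6.34 CPM at the high dose, against 56.9, 59.7 and 54.9 CPM in vehicle, MT1F 4.32 CPM, against 27.6 to 30.1 CPM, and MT1X 6.66 CPM, against 33.4 to 36.5 CPM. MT2A had 163 CPM, against 194 to 223 CPM (log2 -0.36), and changed by -0.01 over the low dose. The replicate SD of these copies, 0.19 to 0.26, is above that of most genes. The MT1X promoter is shown because it holds 4 matches to the metal element TGCNCNC with a purine at its first N (capitals, both strands), a motif in 24.8% of all RefSeq promoters. It lies at chr16:56682220-56682469 on GRCh38.p14 (plus strand, RefSeq).
MT1X: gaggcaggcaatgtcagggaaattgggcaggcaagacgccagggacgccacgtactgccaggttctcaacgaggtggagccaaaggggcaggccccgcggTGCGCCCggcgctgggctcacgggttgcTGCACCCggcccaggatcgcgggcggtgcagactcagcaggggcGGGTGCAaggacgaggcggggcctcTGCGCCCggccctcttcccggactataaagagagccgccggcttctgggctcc
Of 3 measured AhR targets, TIPARP and CYP1A1 were called higher at the high dose over vehicle (log2 1.14 and 1.11) but not over the low dose (log2 0.94 and 0.87). The share of all genes called higher was 9.18%. CYP1A1 was measured through the high dose alone, and 1 of the 2 members of at least 10 CPM in vehicle was called higher. In the 57 libraries outside the dose series CYP1A1 reached 931 CPM. CYP1A1 had 18.3 CPM, against 8.15, 7.56 and 8.27 CPM in vehicle, and 9.59 and 14.4 CPM at the low and medium doses.

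The other lists moved little or in both directions. Of 8 NF-kB targets 1 was called higher (RELB) and 2 lower (TNFAIP3 and CCL20), beside 9.18% and 11.1% of all genes. Of 21 hypoxia and glycolysis genes 3 were higher (ADM, KDM3A, NDRG1) and 2 lower (SLC2A3 and PFKL), beside 9.18% and 11.1% of all genes. Over the low dose the counts of both lists were the same. RELB and ADM were measured through the high dose alone. Among members of at least 10 CPM in vehicle, 0 of 7 NF-kB targets were called higher. Of the hypoxia and glycolysis genes 2 of 20 were, beside 6.62% of all such genes. Of 11 tubulin and actin genes TUBB2A (194 CPM, against 29.3 to 38.2 CPM in vehicle) and TUBB6 (101 CPM, against 16.5 to 18.5 CPM) were higher and TUBB (1121 CPM, against 2449 to 2658 CPM) lower. The shares of all genes were 9.18% and 11.1%, the latter near that of this list, and over the low dose 2 members were higher and 1 lower. IGFBP1 had 97.8 CPM, against 23.5 to 29.6 CPM in vehicle, and was at 46.4 and 42.2 CPM at the low and medium doses. All these levels lay within the range of the replicated libraries of the series, 23.5 to 191 CPM, whose lowest was a vehicle library. The replicate SD of IGFBP1 was 0.35. The growth factor gene IGF2 was lower at the medium dose than at the high, with 2411, 1448 and 1749 CPM from low to high and 3747 to 3915 CPM in vehicle. PEG10, a paternally expressed gene chosen after its values were seen, had 4094, 2875 and 1072 CPM from low to high and 5804 to 6518 CPM in vehicle.

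By their summed share of counts and by the list's median, transcripts of the mitochondrial genome were below vehicle at every dose. Of 13 genes 7 were called lower at the high, 3 at the medium and 2 at the low dose. Of all genes 11.1%, 0.272% and 0.158% were called lower at these doses. The list's medians were -1.13, -0.78 and -0.78 log2 units. The mitochondrial share of most other treated libraries also lies below vehicle, and whether a difference in handling of the vehicle libraries moves these values was not tested. Over the low dose 1 of the 13 was called lower and 1 higher, and the median at the high dose was -0.50. There MT-CO3 and MT-CO1, subunits of cytochrome oxidase, changed by -1.09 and -0.93, with 4492 and 9114 CPM at the high dose, against 9532 and 17378 CPM at the low dose. MT-ND6, the 1 protein gene read from the other strand, changed the other way, with 1752 CPM at the high dose, against 870 CPM at the low dose (log2 1.01).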

How the data were processed

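RNA of HepG2 cells was sequenced as 100 bp pairs from a directional kit, per the labels' protocols. The values are expected counts as the authors deposited them, over 60675 Ensembl genes and 60 libraries. Per the submitters' processing notes the tools were FastQC 0.11.9, Trim Galore 0.6.5, STAR 2.7.3a and RSEM 1.3.3, on hg38; RSEM shares out reads that fit several genes, and the annotation release and strand setting are not given in the sources used here. A fractional part stood in 10.4% of them, so each was rounded to a whole number. Library sizes were scaled by trimmed mean of M values over all 60 libraries (edgeR 4.0.16, R 4.3.3), and CPM were computed from them.

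Each dose was set against the mean of the 3 vehicle libraries, and high against low, with no test. Genes needed 10 CPM in either group and were called at 2-fold in CPM + 1 outside the vehicle range. Symbols came from a name table (9738 of the 9867 measured genes), positions from GENCODE 29 and promoters from RefSeq. The code was checked on simulated data.

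The 26 gene lists, 6 marker lists and the members were chosen with earlier results of these data known. Named genes are the 14 largest changes per direction that moved 1 way over the doses, up to 5 largest changes per list and a fixed set of stress, liver and proliferation genes; others are stated. List counts use all measured members. List medians use members of at least 10 CPM in vehicle, and medium over low was added, both after the data were seen, since a gene measured through the high dose alone had to differ. Alternatives were DESeq2 1.42.0 size factors, library size, other minima and pseudocounts, fold alone and leaving out each vehicle library. Some genes that these rules pick are not reported here.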

Additional observations from a re-analysis of the deposited data

How the results depend on the processing

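At the high dose, the counts against vehicle stayed within 1.5 times of 906 higher and 1091 lower under DESeq2 size factors, scaling over 6 libraries, minima of 5 and 20 CPM or none, pseudocounts of 0.5 and 5, fold alone and without each vehicle library (890 to 941 higher, 1085 to 1115 lower). The exception was library size alone, with 1377 higher; 64.8% of the calls were then higher, against 45.4% as reported and 49.5% under DESeq2 size factors. Counts of high over low stayed within 1.5 times under all settings run. The small counts moved more. Library size alone gave 53 higher and 13 lower at the medium and 9 lower at the low dose; no minimum gave 58 higher and 51 lower at the medium and 28 higher and 32 lower at the low dose; a pseudocount of 5 gave 19 higher at the medium dose. Of 151 named gene changes, 0 called ones turned direction. Library size alone moved all 26 list medians, by at most 0.22 log2 units, and turned the sign of 2 (endoplasmic reticulum chaperones 0.11, hypoxia and glycolysis 0.05). Against the low dose 2 turned (endoplasmic reticulum chaperones 0.06, fatty acid oxidation -0.11). No paired analysis was possible because each dose has 1 library and no result comes from a test. As to depth, 10 CPM is 222 counts in the high-dose library. The missing replicates limit every result, beside the choice of scaling and the vehicle libraries, and these limits were not ranked.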
